A study of Mus musculus with 11 samples.

Results

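The tumors described here were 3 shPC25 tumors and 4 scram tumors, 7 of the 11 tumors of the series, and all 22206 probe sets of the array were compared between them. E0771, the parent line of all tumors, is a mammary carcinoma line that takes in C57BL/6 mice with an intact immune system, and 500000 cells had been placed in mammary fat pad number 4 of an untreated C57BL6J female aged 8 to 12 weeks. The shPC25 cells carried a lentiviral pLKO.1 hairpin against Pcx and the scram cells a scrambled hairpin in the same vector, and both were selected with puromycin. The number of separate transductions is not given in the sources used here, and a difference between the populations apart from Pcx cannot be told apart from an effect of the hairpin. All titles carry the letters LFD, which the labels do not spell out, and the study kept the mice of its E0771 experiments on 1 diet. RNA came from whole tumors, so a lower signal of a host cell gene can stem from fewer cells of that type or from less RNA per cell, and these cannot be told apart. The remaining 4 tumors of the series, grown from cells with the hairpin shPC28, are used only where they are named.

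Pyruvate carboxylase is a mitochondrial enzyme that joins pyruvate and bicarbonate to oxaloacetate, which refills the tricarboxylic acid cycle when its intermediates are drawn off for biosynthesis. Cells that lack it depend on other routes into the cycle, chiefly glutamine, and pyruvate can instead leave as lactate. A tumor in the fat pad also holds host fibroblasts, which lay down collagens and proteoglycans, and host macrophages and neutrophils, which make cytokines, complement and acute phase proteins, so its profile mixes the carcinoma cells with this stroma.

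Arrays correlated at r = 0.987 to 0.992 across probe sets, no 2 were identical, and their medians lay between 5.89 and 6.08 on the log2 scale. Olfactory receptor genes, which a mammary tumor is not expected to use, served as a guide to background, and the 95th percentile of their 1091 probe sets was 4.23. On the first principal component of the 7 tumors (24.0% of the variance) the shPC25 tumors lay at 20.02, 41.8 and 24.7, against -31.9, -20.5, -38.6 and 4.44 for the scram tumors. On this component scram replicate 4 lay nearest to the shPC25 tumors, whereas on the second (20.4% of the variance) it lay at -42.2, against 1.80 to 20.1 for the other scram tumors. The shPC25 tumors were also spread on the second component, with replicate 2 at 44.1 and replicates 1 and 3 at -9.37 and -23.3. The labelled tissue was checked with epithelial genes. Krt8, a keratin of simple epithelium, stood at 13.56 to 14.58 in shPC25 tumors and at 13.92 to 14.43 in scram tumors, whereas 8 of the 17 measured genes of the epithelial list, among them Krt18 and Esr1, had both group means at or under background. Of the 17 genes 12 were lower and 5 higher in shPC25 tumors, with a median difference of -0.20. The keratin Krt14 had 6.66, 3.92 and 8.51 in shPC25 tumors against 8.17, 9.21, 8.99 and 8.16 in scram tumors (-2.27, SE 0.90), with overlap.

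Pcx itself was measured near background. Its log2 signal was 3.19, 3.42 and 3.12 in the shPC25 tumors, against 3.41, 3.89, 4.48 and 4.13 in the scram tumors. The groups overlapped by 1 tumor, since scram replicate 1 lay below shPC25 replicate 2. The difference was -0.73 (SE 0.25), with an adjusted p of 0.574 in limma and an exact two-sided permutation p of 0.0857 over the 35 assignments of tumors, where the smallest p these values allow is 0.0286. Knockdown could therefore not be read reliably from this probe set, since both group means lay under the background level. The study assayed the enzyme in shPC25 E0771 cells by immunoblot and its transcript by qPCR, and describes these cells as PC-depleted.

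Genes that bring pyruvate into mitochondria or turn it to lactate showed small differences apart from Me1. Of 21 measured genes of pyruvate fate and lactate transport, 14 were lower and 7 higher in shPC25 tumors, with a median difference of -0.09 (0.03 after median centring). Mpc1, a subunit of the mitochondrial pyruvate carrier, was the 1 member without overlap, with 13.52, 13.07 and 13.55 in shPC25 tumors against 13.89, 13.81, 13.97 and 13.65 in scram tumors (difference -0.45, SE 0.18, adjusted p = 0.623). Me1, the cytosolic malic enzyme that makes pyruvate from malate, had the largest difference of the list at -1.85 (SE 0.62, adjusted p = 0.561). Its values of 7.14, 9.10 and 6.56 in shPC25 tumors overlapped those of 9.14, 10.44, 9.59 and 8.64 in scram tumors through shPC25 replicate 2. Ldha, lactate dehydrogenase A, was among the brightest probe sets, averaging 16.95 ± 0.08 in shPC25 tumors and 16.97 ± 0.06 in scram tumors (SD, n = 3 and 4). The lactate transporter genes Slc16a1 and Slc16a3 differed by 0.08 (SE 0.16) and -0.28 (SE 0.19), and Hif1a, the oxygen-regulated transcription factor gene, by -0.34 (SE 0.19). The sign of the Ldha difference of -0.01 was not stable, as it turned positive when the arrays were centred on their medians (0.11).

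**Figure D1:**
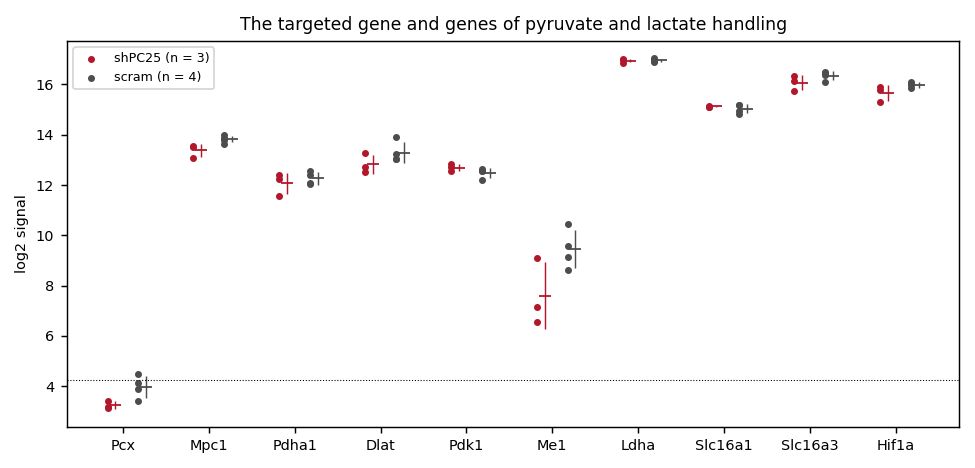
Log2 signal of Pcx and 9 genes of pyruvate and lactate handling in each tumor, shPC25 (left of each pair, n = 3) and scram (n = 4), with mean and SD beside the points and the background level of 4.23 as a dotted line. Pcx lies under the dotted line in all tumors but scram replicate 3 (4.48), and Me1 has the widest gap between group means of the genes drawn.

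Over the whole array, 0 of 22206 probe sets passed an adjusted p of 0.05 in limma (0%), and the smallest adjusted p was 0.127. Without adjustment, 1693 probe sets (7.62%) had p under 0.05, 842 lower and 851 higher in shPC25 tumors. Groups did not overlap at 754 probe sets that were lower in every shPC25 tumor than in every scram tumor (3.4%) and at 923 that were higher (4.16%). That split depended on which scaling was used. Quantile normalization gave 801 lower and 973 higher, with the median of all differences still at 0.02. Centring the arrays on their medians moved the median of all differences to 0.14 from 0.02 as deposited. The split then became 337 lower and 2179 higher. It also grew when any 1 of the 7 tumors was left out, to between 1176 and 1642 lower and between 1335 and 1928 higher, since fewer tumors overlap less often. Across these settings 1 probe set passed the threshold, that of Prg4, the joint and matrix lubricant lubricin, when scram replicate 2 was left out (difference -3.34, SE 0.22, adjusted p = 0.0151). Prg4 had 3.76, 3.50 and 3.49 in shPC25 tumors against 7.19, 3.04, 7.01 and 6.56 in scram tumors, so that scram replicate 2 was the lowest of the 7. The Prg4 values of all shPC25 tumors and of scram replicate 2 lay under the background level.

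Large differences were more often negative. Differences beyond 1 log2 unit were found at 384 probe sets that were lower and 90 that were higher in shPC25 tumors. These counts were 348 and 104 after quantile normalization, and 292 and 163 after median centring. The count of higher ones reached 162, 162 and 154 when shPC25 replicates 1, 2 and 3 were left out in turn. Beyond 2 log2 units there were 59 lower and 4 higher, of which 33 and 1 did not overlap between groups. At smaller sizes the balance was closer, with 1497 lower and 1175 higher beyond 0.5. Every gene described from here on missed the adjusted threshold, so the values below are differences between these 7 tumors, and the 3.4% and 4.16% are the shares of all probe sets against which counts without overlap are to be read.

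**Figure D2:**
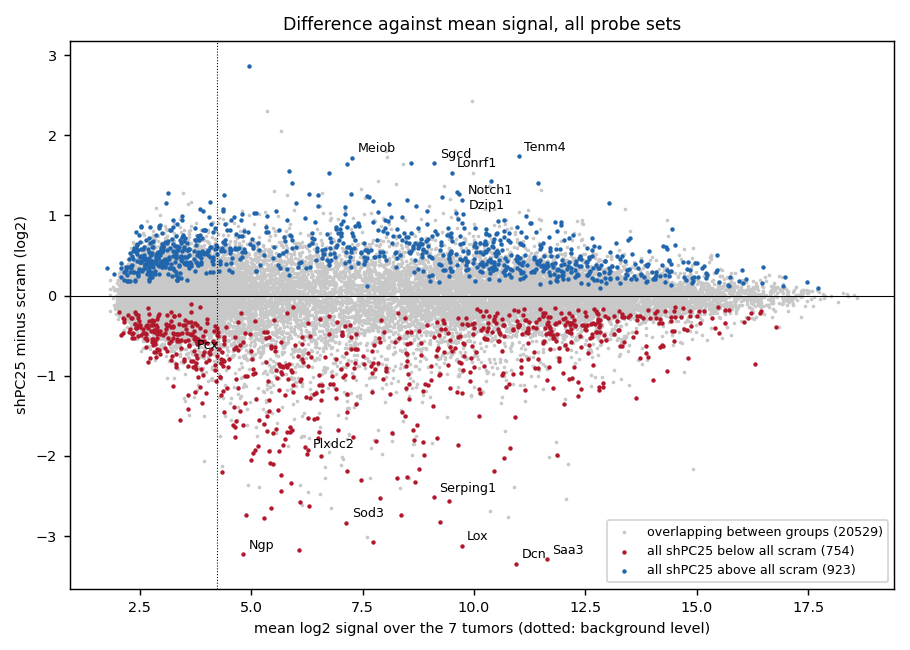
Difference of the group means (shPC25 minus scram, log2) against the mean log2 signal of the 7 tumors for all probe sets, with the 754 lower and 923 higher probe sets without overlap in color and the background level of 4.23 dotted. Beyond 2 log2 units there are 59 points below and 4 above the line at 0.

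Among probe sets with 1 gene symbol and no overlap, the 12 lower genes with the smallest p-values had differences of -2.83 to -1.68. Plxdc2, a transmembrane protein with a plexin-like domain, had 5.44, 5.02 and 4.90 in shPC25 tumors against 7.37, 6.98, 7.13 and 6.89 in scram tumors, a 3.92-fold lower mean (difference -1.97, SE 0.20, adjusted p = 0.127). Lpcat2, which makes platelet-activating factor in inflammatory cells, had 7.71, 7.83 and 7.48 in shPC25 tumors against 9.20, 9.33, 9.78 and 9.11 in scram tumors (-1.68, SE 0.20, adjusted p = 0.185). Serping1, the inhibitor of complement C1, had 7.45, 8.10 and 7.43 in shPC25 tumors against 10.82, 9.80, 10.43 and 9.64 in scram tumors (-2.51, SE 0.32, adjusted p = 0.194). In all of these the gap between the groups was wider than the spread within either. With all 11 tumors in 1 fit the adjusted p of Lpcat2 was 0.0505, the nearest to the threshold in any setting tried among the named genes other than Prg4.

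Several of the next genes act on the extracellular space. Timp3, an inhibitor of metalloproteinases bound to matrix, had 4.07, 4.58 and 4.14 in shPC25 tumors against 7.32, 5.88, 7.09 and 6.52 in scram tumors (-2.44, SE 0.34). Sod3, the extracellular superoxide dismutase, had 5.02, 5.80 and 5.73 in shPC25 tumors against 9.45, 8.0, 8.39 and 7.56 in scram tumors (-2.83, SE 0.42), and was 7.13-fold lower. Mmp3, the metalloproteinase stromelysin 1, had 7.11, 8.45 and 8.35 in shPC25 tumors against 11.0, 10.01, 11.01 and 10.11 in scram tumors (-2.56, SE 0.40). Both an enzyme that cuts matrix and an inhibitor of such enzymes were thus lower in the same tumors. Sulf1, which trims sulfate from heparan sulfate chains, was lower by a difference of -2.52 (SE 0.40). Ch25h, the enzyme for 25-hydroxycholesterol, differed by -1.77 (SE 0.29), and S1pr3, a receptor for sphingosine-1-phosphate, by -1.94 (SE 0.31). Adjusted p-values of these 6 genes ran between 0.221 and 0.322.

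The remaining lower genes of that rule were Gtsf1, a germline small-RNA factor, Vgll3, a cofactor of TEAD transcription factors, and Amt of the glycine cleavage system. Gtsf1 had 5.18, 5.24 and 3.98 in shPC25 tumors against 7.29, 6.90, 7.76 and 7.75 in scram tumors. Vgll3 averaged 4.29 ± 0.42 in shPC25 tumors and 6.39 ± 0.52 in scram tumors, and Amt 3.62 ± 0.39 in shPC25 tumors and 5.39 ± 0.31 in scram tumors (SD, n = 3 and 4). The shPC25 mean of Amt lay under the background level, and its difference was -1.77.

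The 12 higher genes of the same rule had differences of 0.76 to 1.74. Dzip1, a protein of the ciliary base, had 10.33, 10.50 and 10.17 in shPC25 tumors against 9.23, 9.46, 9.20 and 9.39 in scram tumors (1.01, SE 0.16, adjusted p = 0.320). Tenm4, a teneurin cell adhesion protein, had 11.82, 12.18 and 11.99 in shPC25 tumors against 10.85, 9.70, 10.50 and 9.98 in scram tumors (1.74, SE 0.28, adjusted p = 0.320) and was 3.34-fold higher. Notch1, the receptor of the Notch pathway, had 10.25, 10.56 and 10.43 in shPC25 tumors against 9.21, 9.08, 8.85 and 9.73 in scram tumors (1.20, SE 0.23, adjusted p = 0.446). Tenm4 was the higher gene with both a small p and one of the 6 largest differences, together with Sgcd, a sarcoglycan of the dystrophin complex (1.65, SE 0.32). Gnpat, which starts plasmalogen synthesis in peroxisomes, spanned only 11.73 to 11.80 in shPC25 tumors, against 10.69 to 11.04 in scram tumors (0.90, SE 0.16, adjusted p = 0.395). Uqcr10, part of complex III of the respiratory chain, differed by 0.76 (SE 0.15), Card10, an adaptor upstream of NF-kB, by 1.12 (SE 0.21), and the mitochondrial chaperone-like gene Dnajc30 by 1.11 (SE 0.23).

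Tex9, Fbxo10 and Lonrf1 complete the higher genes above background, with differences of 1.11, 0.78 and 1.53, and their groups did not overlap either. Il17f, a cytokine of T helper cells, met the same rule with a difference of 1.15, but its values of 3.53, 4.12 and 3.59 in shPC25 tumors and 2.44, 2.48, 2.65 and 2.81 in scram tumors were all below the background level. Of the 12 measured IL-17 family genes and receptors 8 were at background, and the median of the list was -0.04 (0.08 after median centring).

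**Figure D3:**
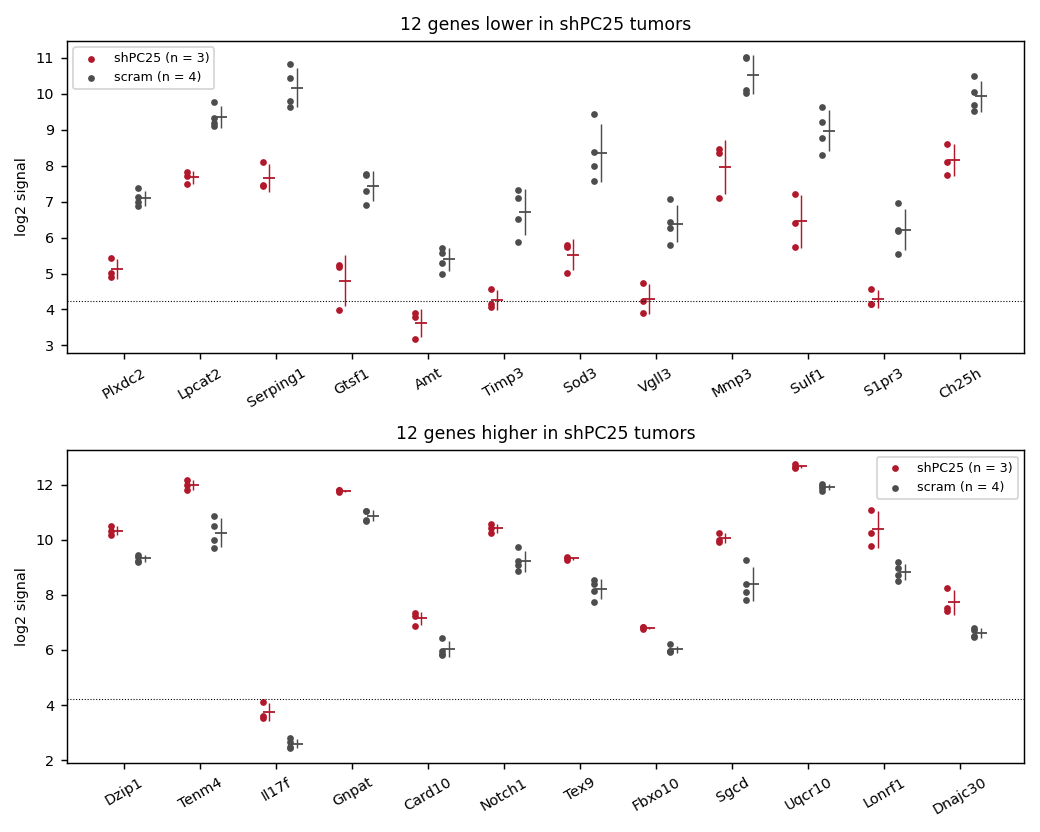
Log2 signal in each tumor of the 12 lower (top) and 12 higher (bottom) genes with the smallest p-values among those without overlap, shPC25 (left of each pair, n = 3) and scram (n = 4), with mean and SD beside the points and the background level of 4.23 dotted. Gaps between groups are wider in the top row, where the shPC25 values of Amt, Vgll3, Timp3 and S1pr3 lie near background.

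By size, the lower genes without overlap were led by matrix, acute phase and neutrophil genes whose scram values were widely spread. Dcn, the collagen-binding proteoglycan decorin, had 8.44, 10.70 and 7.98 in shPC25 tumors against 14.03, 13.24, 11.42 and 10.84 in scram tumors (-3.34, SE 0.88, adjusted p = 0.508). Saa3, an acute phase serum amyloid made by macrophages and stroma in the mouse, had 10.63, 9.48 and 9.18 in shPC25 tumors against 15.02, 13.41, 12.93 and 10.84 in scram tumors (-3.29, SE 0.84, adjusted p = 0.489). Ngp, a protein of neutrophil granules, had 3.12, 2.84 and 2.94 in shPC25 tumors against 9.03, 5.86, 6.58 and 3.31 in scram tumors (-3.23, SE 1.08, adjusted p = 0.561). In all of these scram replicate 4 was the lowest scram tumor and came close to the shPC25 values. For Ngp, scram replicate 4 and all shPC25 tumors lay under the background level, so its gap from 3.12 to 3.31 lay within background. Serpina3n, an acute phase protease inhibitor, had 5.14, 4.66 and 2.98 in shPC25 tumors against 10.11, 5.19, 8.03 and 6.38 in scram tumors, so that only scram replicate 2 came near. Upward, the 6 largest differences among named genes without overlap were those of Meiob, Spink2 and St3gal6 besides Tenm4, Sgcd and Lama5, and lay between 1.53 and 1.74. The 1 probe set above 2 without overlap, TC0600001278.mm.2, had no gene symbol (2.87), and Clec1a, Slc25a21 and Btbd11, at 2.43, 2.31 and 2.06, overlapped between groups. Spink2, a protease inhibitor best known from testis, held 8.18, 8.04 and 8.04 in shPC25 tumors while scram tumors ranged over 6.30, 5.16, 7.57 and 6.76.

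Measured genes were grouped in 34 lists of pathways and cell types with 529 measured genes. In 27 lists the median difference was below 0 and in 7 above, against a median of 0.02 and 47.3% of probe sets below 0 over the whole array. After quantile normalization the split of the lists was 26 below 0 and 8 above. After median centring the split was even, at 17 below 0 and 17 above. The mean signal of the list was lower in every shPC25 tumor than in every scram tumor in 9 lists, and higher in none. Those 9 were fibrillar collagens, small leucine-rich proteoglycans, elastic and other fibroblast matrix, pericytes and smooth muscle, macrophages and monocytes, platelet-activating factor and eicosanoids, sphingosine-1-phosphate, antioxidants and the TNF and NF-kB response. In some the gap was narrow. The highest shPC25 and lowest scram means were 12.83 and 12.84 for antioxidants, 9.88 and 9.91 for fibrillar collagens, and 5.71 and 5.76 for proteoglycans. Array medians were 5.89 to 5.93 in shPC25 tumors and 5.99 to 6.08 in scram tumors. The count of 9 was not repeated after median centring. The lists differ in size and share tumors, so these counts describe them and test none of them.

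**Figure D4:**
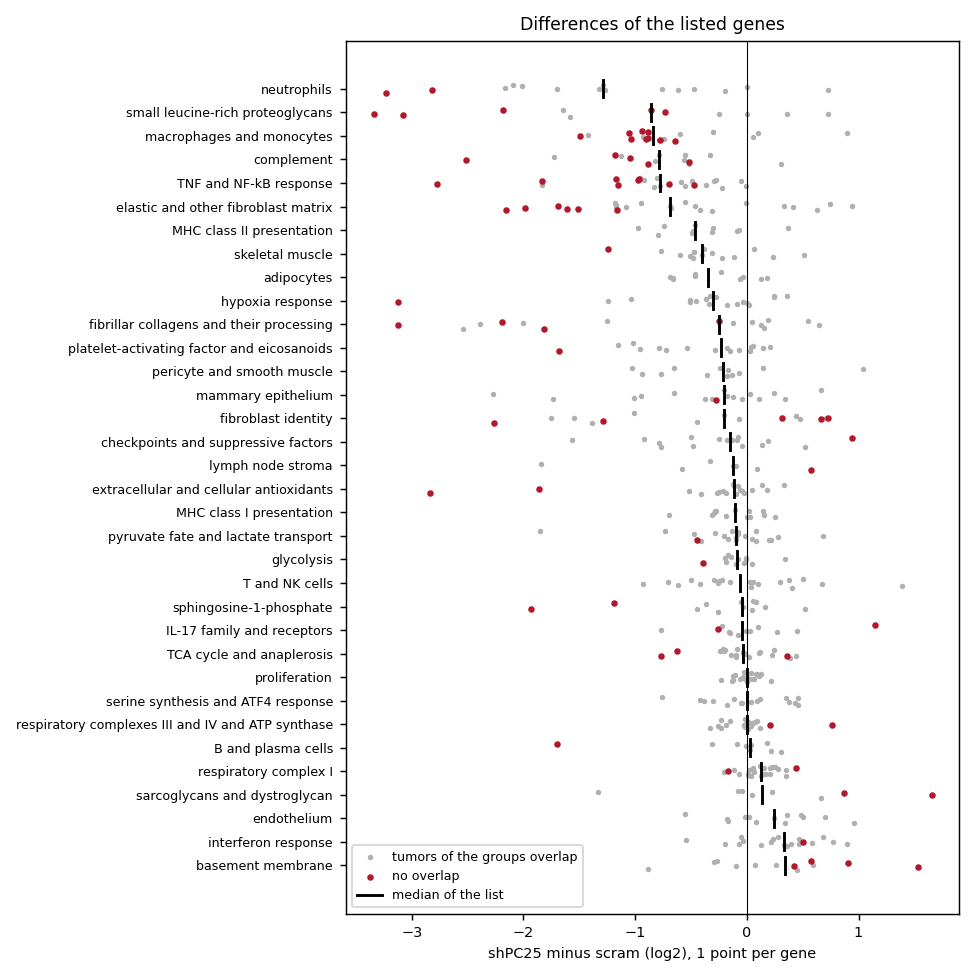
Difference (shPC25 minus scram, log2) of each measured gene of 34 lists, with genes without overlap between groups in red and the median of each list as a bar, ordered by that median. Neutrophil, proteoglycan, macrophage, complement and TNF lists sit furthest to the left, and basement membrane genes furthest to the right with a median of 0.34.

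The TNF and NF-kB response was the list in which all 23 measured genes were lower in shPC25 tumors in the values as deposited. Their differences ran from -2.77 to -0.0058, and median centring moved the median of all differences from 0.02 to 0.14. The count of 23 is therefore tied to the scaling as deposited. NF-kB factors rest in the cytoplasm bound to inhibitors, and TNF or interleukin-1 frees them to switch on cytokine genes and their own inhibitors. The median difference was -0.78, and 8 of the 23 genes did not overlap between groups. List means were 10.13, 10.77 and 10.45 in shPC25 tumors, against 11.48, 11.26, 11.42 and 10.95 in scram tumors.

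Among the cytokines, Il1b, the gene of interleukin-1 beta, had 10.99, 12.72 and 12.67 in shPC25 tumors against 13.49, 12.87, 13.53 and 13.31 in scram tumors (-1.17, SE 0.41). Osm, which encodes oncostatin M, had 6.79, 7.94 and 8.70 in shPC25 tumors against 9.77, 9.75, 9.30 and 9.74 in scram tumors (-1.83, SE 0.40, adjusted p = 0.454). Cxcl5, a neutrophil-attracting chemokine, had 3.96, 4.08 and 3.09 in shPC25 tumors against 9.0, 5.66, 6.41 and 4.85 in scram tumors (-2.77, SE 0.85). No shPC25 tumor reached the lowest scram tumor in any of these genes. The shPC25 values of Cxcl5 all lay under the background level. The feedback inhibitors Socs3 and Tnfaip3 differed by -1.16 (SE 0.23) and -0.70 (SE 0.21), and the survival gene Birc3 by -0.97 (SE 0.27). Tnf itself overlapped, with 9.67, 10.23 and 10.12 in shPC25 tumors and 9.73, 11.68, 10.06 and 10.77 in scram tumors (-0.55, SE 0.43).

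Promoters of this list are shown because its genes all lay on the same side in the values as deposited. RefSeq promoter windows (GRCm38.p6, 250 bases before to 50 after the start) were matched for 17 of the 23 genes, and both strands were searched for an NF-kB-type motif (GGGA, any 2 bases, then TTCC). It occurred in 4 of the 17 windows (23.5%) and in 387 of 27025 windows over all genes (1.43%). The AP-1 letters TGACTCA occurred in 3 of the 17 windows, of Il1a, Il6 and Tnfaip3 (17.6%, against 5.17% of all windows). The TATA letters TATAAA occurred in 9 (52.9%, against 14.2%) and the STAT-type letters TTCCNGGAA in 1, that of Icam1 (5.88%, against 1.15%). The list was drawn from known NF-kB targets, so these shares describe the list and not the tumors. The 4 windows with the NF-kB-type motif follow, 5′ to 3′ on the strand of the gene, with every match to the 4 motifs in capitals.
Cxcl2: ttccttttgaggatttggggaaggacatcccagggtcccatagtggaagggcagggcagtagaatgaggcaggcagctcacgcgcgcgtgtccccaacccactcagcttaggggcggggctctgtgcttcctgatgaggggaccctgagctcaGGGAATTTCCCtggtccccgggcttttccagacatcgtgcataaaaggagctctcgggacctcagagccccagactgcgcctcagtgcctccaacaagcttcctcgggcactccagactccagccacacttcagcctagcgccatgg
Il6: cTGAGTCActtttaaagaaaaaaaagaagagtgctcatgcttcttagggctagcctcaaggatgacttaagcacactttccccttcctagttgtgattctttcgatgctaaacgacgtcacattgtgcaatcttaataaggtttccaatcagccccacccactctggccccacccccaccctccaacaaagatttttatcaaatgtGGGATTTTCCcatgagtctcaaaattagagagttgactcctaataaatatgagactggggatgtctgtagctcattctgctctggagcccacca
Nfkbia: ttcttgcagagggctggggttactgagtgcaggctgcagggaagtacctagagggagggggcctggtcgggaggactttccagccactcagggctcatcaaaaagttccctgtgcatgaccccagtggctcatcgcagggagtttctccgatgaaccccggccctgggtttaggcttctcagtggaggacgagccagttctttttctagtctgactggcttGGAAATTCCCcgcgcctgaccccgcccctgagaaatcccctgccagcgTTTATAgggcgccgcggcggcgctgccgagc
Cxcl1: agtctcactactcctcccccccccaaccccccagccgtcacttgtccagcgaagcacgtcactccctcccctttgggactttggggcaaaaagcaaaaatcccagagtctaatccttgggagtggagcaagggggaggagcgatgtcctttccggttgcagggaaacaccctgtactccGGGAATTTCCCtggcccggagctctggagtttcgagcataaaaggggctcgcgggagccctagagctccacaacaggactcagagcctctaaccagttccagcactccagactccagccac
The Cxcl2 window lies at chr5:90903649-90903948 (plus strand) and the Cxcl1 window at chr5:90890995-90891294 (plus strand), and in both the same run reads as a match on either strand, starting 97 bases before the start of Cxcl2 and 71 before that of Cxcl1. The Il6 window, chr5:30012864-30013163 (plus strand), holds its match 44 bases before the start and an AP-1 match beginning 249 bases before it, and the Nfkbia window, chr12:55492598-55492897 (minus strand), holds its match 29 bases before the start and a TATA-type match 19 bases after it. Cxcl2 had 9.56, 12.13 and 10.71 in shPC25 tumors against 13.54, 11.99, 13.58 and 11.41 in scram tumors (-1.83, SE 0.70). Il6 had 6.84, 8.57 and 6.14 in shPC25 tumors against 9.10, 7.32, 8.52 and 7.11 in scram tumors (-0.83, SE 0.65), and the difference was -1.52 without shPC25 replicate 2 and -0.31 without shPC25 replicate 3. Cxcl1 had 8.20, 12.13 and 8.91 in shPC25 tumors against 10.42, 9.77, 12.31 and 10.18 in scram tumors (-0.92, SE 0.94), and the difference was -2.12 without shPC25 replicate 2 and -0.15 without shPC25 replicate 1. In both genes shPC25 replicate 2 was the highest of its group. Nfkbia, the NF-kB inhibitor, differed by -0.22 (SE 0.20). All 4 overlapped between groups, so the windows that carry the motif belong to genes outside the 8 without overlap.

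Macrophage and monocyte genes were lower as a group. Of 18 measured genes 15 were lower and 3 higher, 9 of them without overlap and all 9 lower, with a median difference of -0.84. Msr1, a scavenger receptor, had 11.54, 11.90 and 11.74 in shPC25 tumors against 12.31, 12.59, 12.98 and 12.57 in scram tumors (-0.89, SE 0.20, adjusted p = 0.454). Apoe, the lipid carrier that macrophages secrete, had 13.42, 13.36 and 13.47 in shPC25 tumors against 13.92, 14.83, 14.33 and 14.80 in scram tumors (-1.05, SE 0.24, adjusted p = 0.454). Cd14, a coreceptor for bacterial lipopolysaccharide, had 8.53, 9.83 and 9.40 in shPC25 tumors against 10.88, 9.97, 11.31 and 10.84 in scram tumors (-1.50, SE 0.38). Defining markers of the lineage followed, with differences of -0.90 (SE 0.31) for Adgre1, an adhesion receptor used to mark mouse macrophages, and -0.89 (SE 0.27) for Csf1r, the receptor for the macrophage growth factor. Trem2, a lipid-sensing receptor of tumor macrophages, differed by -1.04 (SE 0.29). Ly6c2, a marker of inflammatory monocytes, went the other way (0.90, SE 0.58) with overlap. The monocyte and macrophage list mean was 10.70 to 10.91 in shPC25 tumors and 11.02 to 11.84 in scram tumors, with scram replicate 4 at the low end.

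Complement is made largely by macrophages and fibroblasts in such tumors, and 14 of its 15 measured genes were lower (median -0.78, 5 without overlap). C1qc, a chain of C1q, had 10.85, 10.12 and 10.41 in shPC25 tumors against 11.31, 11.93, 11.85 and 11.48 in scram tumors (-1.18, SE 0.24, adjusted p = 0.450). C1qa differed by -1.04 (SE 0.31), C5ar1, the receptor for C5a, by -0.88 (SE 0.24), and C2 by 0.31 (SE 0.52) as the 1 gene on the higher side. The list mean of scram replicate 4 (9.87) lay below that of shPC25 replicate 1 (9.92), so by tumor the complement list overlapped.

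Neutrophil genes had the most negative median of all lists (-1.28) with few clean separations. Of 15 measured genes 13 were lower, but only Ngp and Retnlg did not overlap and 4 were at background. The Ngp values of all shPC25 tumors and of scram replicate 4 lay under the background level. Retnlg, a resistin-like protein of mouse neutrophils, had 7.21, 8.07 and 7.62 in shPC25 tumors against 11.83, 9.99, 11.58 and 8.41 in scram tumors (-2.82, SE 0.75, adjusted p = 0.508). S100a8, an abundant neutrophil calcium-binding protein, had 9.37, 14.05 and 10.49 in shPC25 tumors against 13.48, 12.42, 13.52 and 10.93 in scram tumors (-1.28, SE 1.07). For S100a8 the highest of all 7 values was shPC25 replicate 2, and that tumor also had the highest neutrophil list mean of its group (8.28, against 6.56 and 7.29 in the other shPC25 tumors). Mmp9, a gelatinase of myeloid cells, differed by -2.09 (SE 0.77) and Trem1, an amplifier of myeloid activation, by -1.32 (SE 0.49).

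Of 16 measured genes of platelet-activating factor and eicosanoids 11 were lower and 5 higher in shPC25 tumors, with a median of -0.23 that ran from -0.43 without scram replicate 4 to -0.13 without scram replicate 3. Lpcat2 was the 1 member without overlap. Beside it, Pla2g4a, the phospholipase that frees arachidonic acid, differed by -0.78 (SE 0.27), and Alox5ap, the helper of leukotriene synthesis, by -0.72 (SE 0.26), both with overlap. Gpx3, the secreted glutathione peroxidase, had 8.09, 8.96 and 8.68 in shPC25 tumors against 10.16, 11.16, 9.99 and 10.44 in scram tumors (-1.86, SE 0.32, adjusted p = 0.351). Together with Sod3 it made up the 2 antioxidant genes without overlap of 19 measured, both of them secreted, while the list median was -0.12 (0.01 after median centring). Plpp3, a lipid phosphatase at the cell surface, differed by -1.19 (SE 0.32) beside S1pr3, and the median of the sphingosine-1-phosphate list was -0.04 (0.08 after median centring).

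Interstitial matrix genes were lower, and scram replicate 4 had the lowest list mean of the scram tumors for each of the 3 matrix lists. Small leucine-rich proteoglycans had a median difference of -0.86, with 8 of 11 measured genes lower and 5 of them without overlap, though 5 of the 11 were at background, among them Podn and Ecm2 of those 5. Lum, lumican, had 5.15, 6.97 and 5.78 in shPC25 tumors against 10.46, 10.10, 8.11 and 7.5 in scram tumors (-3.08, SE 0.76, adjusted p = 0.473). Bgn, biglycan, had 9.0, 9.94 and 8.64 in shPC25 tumors against 11.71, 12.02, 10.82 and 10.97 in scram tumors (-2.19, SE 0.39, adjusted p = 0.378). Both proteins bind collagen fibrils, as does decorin. The list mean was 5.41, 5.71 and 5.31 in shPC25 tumors, against 7.30, 6.92, 6.50 and 5.76 in scram tumors.

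Collagen fibers and their cross-linking showed the same side with more overlap. Col3a1, the type III collagen chain, had 10.34, 11.21 and 10.28 in shPC25 tumors against 14.05, 13.99, 13.64 and 10.93 in scram tumors (-2.54, SE 0.72), and scram replicate 4 lay inside the shPC25 range. Col1a1 and Col1a2, the chains of type I collagen, differed by -2.0 (SE 0.61) and -2.39 (SE 0.71), also with overlap. Lox and Loxl1, the enzymes that cross-link collagen and elastin, did not overlap. Loxl1 had 5.46, 6.49 and 5.74 in shPC25 tumors against 8.79, 8.41, 7.68 and 7.48 in scram tumors (-2.19, SE 0.37, adjusted p = 0.338), and Lox had 8.84, 8.10 and 6.88 in shPC25 tumors against 12.13, 10.94, 12.17 and 9.0 in scram tumors (-3.12, SE 0.78). Genes that fold and hydroxylate collagen had mixed signs with overlapping groups. Serpinh1, a collagen chaperone, differed by 0.15 (SE 0.17), the prolyl hydroxylases P3h1 and P4ha2 by 0.64 (SE 0.23) and -0.27 (SE 0.34), and the lysyl hydroxylase Plod2 by -0.12 (SE 0.25). The list of fibrillar collagens and their processing had a median of -0.25.

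Of the 23 measured genes of elastic and other fibroblast matrix 18 were lower, 6 without overlap and none higher without overlap (median -0.68). Fbln2, a fibulin of elastic fibers, had 11.82, 11.33 and 12.04 in shPC25 tumors against 12.84, 13.25, 12.69 and 12.80 in scram tumors (-1.17, SE 0.22, adjusted p = 0.446). Thbs2, a matricellular thrombospondin, had 7.51, 7.70 and 7.41 in shPC25 tumors against 10.27, 11.20, 9.36 and 7.96 in scram tumors (-2.16, SE 0.64), and Postn, periostin, differed by -1.98 (SE 0.60). The type VI collagen chains Col6a1, Col6a2 and Col6a3 were exceptions, with differences of 0.74, 0.94 and 0.41 and overlapping groups.

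The list of basement membrane genes leaned to the other side. The median of the 12 measured genes was 0.34, 8 were higher, and the 4 without overlap were all higher. Lama5, a laminin chain of epithelial and vascular basement membranes, had 7.65, 8.10 and 7.12 in shPC25 tumors against 6.99, 5.79, 5.09 and 6.49 in scram tumors (1.53, SE 0.44, adjusted p = 0.518). Hspg2, the proteoglycan perlecan, had 11.67, 11.94 and 11.78 in shPC25 tumors against 10.88, 11.47, 10.11 and 11.12 in scram tumors (0.90, SE 0.30, adjusted p = 0.561). Col4a2 of type IV collagen and Lamc1, the common laminin gamma chain, differed by 0.57 (SE 0.18) and 0.42 (SE 0.19). Laminin chains taken as a family, with members outside this list, did not lean higher. Of 10 measured, 8 were lower and 2 higher (median -0.25), and the 2 without overlap were higher. By tumor the list mean still overlapped (10.15 to 10.42 in shPC25 tumors, 9.82 to 10.47 in scram tumors) and scram replicate 1 was the highest of all 7.

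**Figure D5:**
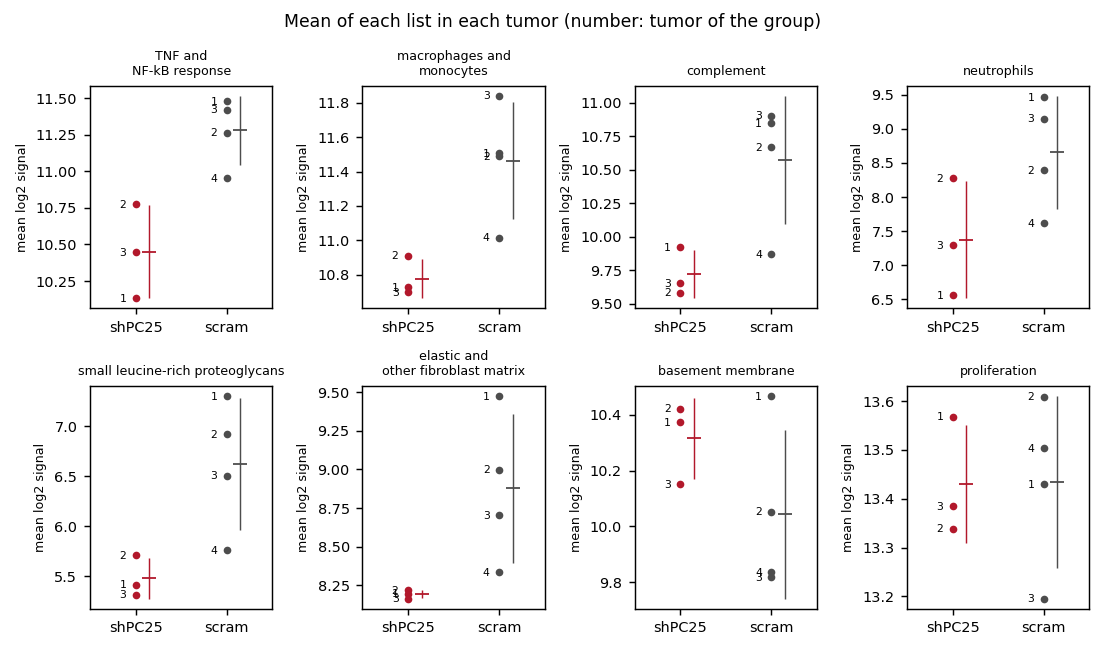
Mean log2 signal of 8 gene lists in each tumor, shPC25 (left, n = 3) and scram (right, n = 4), with group mean and SD beside the points, tumors numbered within their group and a separate vertical scale in each panel. Scram tumor 4 is the lowest scram tumor in the TNF, macrophage, complement, neutrophil and both matrix panels, and the groups overlap for complement, neutrophils, basement membrane and proliferation.

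Genes that mark fibroblasts were split. Of 15 measured, 9 were lower and 6 higher (median -0.20), with 2 lower and 3 higher without overlap. The median depended on single tumors, running from -0.52 without scram replicate 3 to -0.07 without scram replicate 2 and -0.06 without shPC25 replicate 2. Thy1, a surface glycoprotein of fibroblasts and T cells, had 6.94, 8.14 and 6.52 in shPC25 tumors against 9.88, 9.99, 9.01 and 8.98 in scram tumors (-2.27, SE 0.42, adjusted p = 0.420), and Pdpn, podoplanin, differed by -1.29 (SE 0.33). The fibroblast markers Dpt, Pi16 and Islr were lower with overlap, and Dpt had 4.52, 4.06 and 3.76 in shPC25 tumors against 7.67, 4.29, 6.98 and 4.54 in scram tumors (-1.76, SE 0.80). Pdgfrb, the platelet-derived growth factor receptor of fibroblasts and pericytes, was not lower (0.44, SE 0.40), and Twist1 and Gsn, a mesenchymal transcription factor and the actin-severing gelsolin, differed by 0.66 (SE 0.22) and 0.72 (SE 0.26) without overlap. The list mean was 7.87 to 8.06 in shPC25 tumors and 7.76 to 8.91 in scram tumors. Matrix products and fibroblast markers therefore did not line up gene by gene. Pericyte and smooth muscle genes had a median of -0.21 (-0.51 without scram replicate 4) with 10 of 12 lower and 0 without overlap, and Mcam was the most positive of them (1.04, SE 0.39).

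Respiratory chain genes differed little in size. Of 25 measured genes in the complex I list, 21 were higher in shPC25 tumors, with a median of 0.13 (0.097 to 0.16 when each tumor was left out). The list counts Ndufa4 (0.03, SE 0.21), whose product is now assigned to complex IV. Ndufa5 was higher without overlap, at 12.51, 12.62 and 12.47 in shPC25 tumors against 12.03, 12.15, 11.98 and 12.23 in scram tumors (0.44, SE 0.15, adjusted p = 0.573), and Ndufs4 lower without overlap (-0.17, SE 0.15). The list mean spanned 12.33 to 12.42 in shPC25 tumors and 12.16 to 12.35 in scram tumors. The 23 measured genes of complexes III, IV and ATP synthase had a median of 0.01, and Cox4i1 (0.21, SE 0.15) and Uqcr10 were higher without overlap. Uqcr10 had 12.73, 12.64 and 12.61 in shPC25 tumors against 11.95, 12.02, 11.76 and 11.87 in scram tumors. In the tricarboxylic acid cycle (median -0.03, and 0.09 after median centring) Idh3a, a subunit of isocitrate dehydrogenase, and Sdhd, of succinate dehydrogenase, were lower without overlap (-0.62, SE 0.21 and -0.77, SE 0.30), and Suclg1 of succinyl-CoA ligase was higher without overlap (0.36, SE 0.15). Glycolysis had a median of -0.09 (0.04 after median centring), and Pkm, pyruvate kinase, was its 1 gene without overlap (-0.39, SE 0.18).

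Hypoxia-inducible genes had a median of -0.30, with 13 of 18 lower. That median was -0.18 and -0.14 without scram replicates 1 and 3, and -0.14 without shPC25 replicate 2. Lox, named above, was the only one without overlap, and Ddit4, an inhibitor of mTORC1 signaling, differed by -1.04 (SE 0.36) with overlap. P4ha1, a collagen prolyl hydroxylase, was higher by 0.36 (SE 0.17). Genes of serine synthesis and the ATF4 response were balanced at 8 lower and 8 higher with 0 without overlap, and Phgdh, the first enzyme of serine synthesis, differed by 0.43 (SE 0.23).

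Interferon-stimulated genes leaned higher, but this rested on 1 tumor. Of 19 measured, 14 were higher in shPC25 tumors (median 0.33), while without scram replicate 4 the median was -0.06. Ifit3 had 12.63, 13.71 and 12.49 in shPC25 tumors and 12.87, 13.54, 11.18 and 10.58 in scram tumors, so scram replicates 1 and 2 were as high as the shPC25 tumors. Bst2, tetherin, was the only member without overlap (0.51, SE 0.20, adjusted p = 0.617). Of 11 genes of MHC class II presentation 10 were lower (median -0.46, but -0.18 without scram replicate 3 and -0.23 without shPC25 replicate 2), all with overlap, and H2-Ab1 differed by -0.46 (SE 0.30). Class I genes had a median of -0.11 (0.01 after median centring), and H2-Q4 differed by -0.70 (SE 0.40).

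T cell genes did not separate the groups. The 20 measured T and NK cell genes were 10 lower and 10 higher with a median of -0.06 (0.06 after median centring) and 0 without overlap. Cd8a, the CD8 alpha chain, had 7.64, 6.36 and 6.93 in shPC25 tumors and 6.47, 5.76, 8.27 and 5.80 in scram tumors (0.40, SE 0.60). Cd4 differed by -0.22 (SE 0.22) and Cd274, the gene of PD-L1, by -0.48 (SE 0.40). Of 16 measured genes of checkpoints and suppressive factors 12 were lower and 4 higher (median -0.15). Havcr2 and Nt5e differed by -0.92 (SE 0.30) and -1.56 (SE 0.68), both with overlap. Tigit, a checkpoint receptor of T and NK cells, was the 1 gene of that list without overlap (6.25%, against 4.16% of all probe sets). It had 7.21, 6.14 and 5.67 in shPC25 tumors against 5.54, 5.07, 5.66 and 5.34 in scram tumors (0.94, SE 0.34, adjusted p = 0.595). In the B and plasma cell list 7 of 9 genes, Ms4a1 and Pax5 among them, were at background, and Cd79a differed by -1.70 (SE 0.47) without overlap.

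Tissue around the tumor was checked with further lists. Of 15 measured skeletal muscle genes 12 were lower and 3 higher in shPC25 tumors, with a median difference of -0.40. That median ran from -0.56 to -0.24 when each tumor was left out. Acta1 was the 1 gene without overlap, and it was lower (-1.245, SE 0.48). The muscle list mean overlapped by tumor, at 4.19 to 4.25 in shPC25 tumors and 4.09 to 5.01 in scram tumors. In this list 6 of 15 genes were at background, and scram replicates 2 and 3 had the highest list means. Of 10 measured adipocyte genes 8 were lower and 2 higher, all with overlap, with a median of -0.35 (-0.46 to -0.21 without 1 tumor). Adipocyte list means also overlapped, at 5.40 to 5.76 in shPC25 tumors and 5.60 to 6.33 in scram tumors. The defining markers Plin1 and Lep were at background. Endothelial genes had a median of 0.24 that became -0.10 without shPC25 replicate 1, whose list mean of 9.12 was the highest of the 7. Proliferation genes had a median of 0.00, and Mki67 averaged 13.11 ± 0.09 in shPC25 tumors and 13.05 ± 0.34 in scram tumors (SD, n = 3 and 4). The part of these tissues in the other differences was not tested.

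The shPC25 tumors were also set against the 4 shPC28 tumors, whose hairpin targets the same gene. Here too 0 of 22206 probe sets passed an adjusted p of 0.05 in limma (0%), with 1023 at an unadjusted p under 0.05. Serping1 differed by -1.09 (SE 0.38) and Lpcat2 by -0.58 (SE 0.19) between shPC25 and shPC28 tumors, and Dzip1 by 0.73 (SE 0.18). Dcn and Saa3 differed by -0.27 (SE 0.93) and -0.58 (SE 1.04). All of these had an adjusted p of 0.993, so none of the differences from scram described above was shown to be particular to shPC25.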

How the data were processed

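Whole tumors were disrupted by bead beating in TRIzol, RNA was purified with the EZNA HP Total RNA kit, and labelled material was hybridized to mouse Clariom S arrays. The authors deposited 1 table of log2 signals, made with the Transcriptome Analysis Console. Neither the background correction, summarization and normalization behind these values nor the genome build of the array annotation is stated in the sources used here, so no gene coordinates are given other than those of RefSeq promoters. The labels name no scan date or batch. For arrays, precision was limited by the number of tumors (3 against 4).

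Values were used as deposited. Each probe set was compared with limma 3.58.1 (lmFit and eBayes, R 4.3.3), as shPC25 minus scram over 7 tumors, two-sided, with Benjamini-Hochberg adjustment over all 22206 probe sets and a threshold of 0.05. The fit was tested on simulated data. The shPC25 minus shPC28 contrast was taken from a fit of all 11 tumors. A probe set had no overlap when all shPC25 values lay on the same side of all scram values. Of the probe sets, 19572 carried 1 gene symbol, 0 several and 2634 none. A list used the brightest probe set of each gene and was described by counts and a median, without a test. Background was the 95th percentile of olfactory receptor probe sets, and a gene was at background when both group means lay at or under it. Lists were 34, with 576 genes of which 529 were measured.

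Genes to name were the target, 8 genes of the study's pathways, the 12 of smallest p and the 6 of largest difference in each direction among genes without overlap, and the 4 of smallest p in each list, leaving aside Gm and Rik symbols. Not all of the 165 genes picked in this way are described, and those described were chosen with the values known. Further genes, among them Prg4, were named after their values were seen. Members and lists were chosen with earlier results of these data known. Alternatives were the spread of all 11 tumors, quantile normalization, median centring, 2 filters on dim probe sets, a trended robust prior, array weights, an equal-variance test without a shared prior, a replicate block, and leaving out each tumor. Promoters came from RefSeq (GRCm38.p6). The hairpin sequence and the tissue staining of the study were not used here.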

Additional observations from a re-analysis of the deposited data

Results flagged for a closer look

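In the 4 scram tumors, 7 of 163 genes and list means tested had 1 tumor standing apart by Dixon's criterion, where chance gives about 1 in 20. Scram replicate 4 held 4 of them. Col3a1 had 10.93 in scram replicate 4, against 13.64 to 14.05 in the other scram tumors, and that value lay among those of the shPC25 tumors. Lamc1 had 14.52 there, against 14.63 to 14.65, Ndufs4 had 11.33, against 11.14 to 11.16, and Fbxo10 had 6.21, against 5.94 to 5.98. Scram replicate 3 stood apart for Sdhd at 14.80, against 13.98 to 14.10 in the other scram tumors, and for Osm at 9.30, against 9.74 to 9.77. The mean of the respiratory complexes III and IV and ATP synthase list was 13.51 in scram replicate 1, against 13.61 to 13.63 in the other scram tumors.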

How the results depend on the processing

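No probe set passed an adjusted p of 0.05 for shPC25 minus scram in any setting with all 7 tumors, with 1029 to 2320 at an unadjusted p under 0.05. Leaving out 1 tumor gave 0 to 1 calls, and the 1 was Prg4 without scram replicate 2. Counts without overlap were 801 lower and 973 higher after quantile normalization, and 337 lower and 2179 higher after median centring. They were 445 and 543 without probe sets below the median. Without 1 tumor they were 1176 to 1642 lower and 1335 to 1928 higher, where fewer tumors make separation easier. The Pcx difference kept its sign wherever it could be computed (-0.92 to -0.57 without 1 tumor), and both filters on dim probe sets removed Pcx. The shPC25 minus shPC28 contrast had 0 calls in each setting, with 863 to 1375 at an unadjusted p under 0.05.

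None of the 129 genes from the rule or the lists that were followed through the settings passed the threshold in any of them. Differences that changed sign were small. Ldha was 0.11 after median centring, 0.0018 with array weights and -0.05 to 0.025 without 1 tumor. Krt18 was 0.0025 after centring, 0.17 with array weights and -0.45 to 0.25 without 1 tumor. Pax5 was 0.11, Lep 0.063 and Plod2 0.0 after centring. Without 1 tumor, Mki67 ran over -0.063 to 0.21, Pdgfrb -0.058 to 0.83, C2 -0.11 to 0.70, Pax5 -0.19 to 0.12, Lep -0.13 to 0.027, P4ha2 -0.60 to 0.085, Plod2 -0.27 to 0.0067 and Krt8 -0.19 to 0.32. The causes were not tested. List medians split 26 below 0 and 8 above after quantile normalization, and 17 and 17 after median centring, against 27 and 7 as deposited. Of the 34 medians 14 changed sign in some setting, the one furthest from 0 as deposited being the interferon list (-0.063 without scram replicate 4, against 0.33). The T and NK cell list was at 0.27 without scram replicate 3.

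With the label numbers as a replicate block, 0 probe sets passed and 1898 had an unadjusted p under 0.05. The replicate block turned the sign of C2 (-0.11), Pax5 (0.040), Lep (0.027) and Krt8 (-0.010). Same-numbered tumors deviated from their group means with correlations of only 0.026, -0.0096 and 0.016, and no shPC25 tumor correlated best with the scram tumor of its own number, so the numbers were not read as pairs.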

Other observations

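Gene families outside the lists were looked at after their values were seen, so they are described without a test. Intraflagellar transport genes, whose products carry cargo along cilia, were higher in shPC25 tumors for all 14 measured members, with a median difference of 0.24. Ift57 had 10.99, 11.94 and 10.70 in shPC25 tumors against 10.66, 10.27, 10.54 and 9.60 in scram tumors (0.94, SE 0.35), and Ift74 had 11.03, 10.87 and 10.43 in shPC25 tumors against 10.38, 10.37, 10.14 and 10.25 in scram tumors (0.49, SE 0.19). The other 12 overlapped. The family mean was 9.41 to 9.84 in shPC25 tumors and 9.27 to 9.38 in scram tumors, and all differences missed the adjusted threshold. The BBSome, a coat complex of cilia, did not share this side throughout, with 6 of 8 members higher and Bbs4 lower without overlap (-0.58, SE 0.16). Of 27 Cfap genes 17 were higher, but 12 were at background.

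Further families, apart from the Slit ligands and the Saa acute phase genes, had members on both sides. All 4 measured Saa genes were lower, but with a median of only -0.03 and 3 of them at background. Of 6 glypicans 3 were lower and 3 higher, with a median of -0.02, and Gpc3 had 3.48, 2.95 and 2.81 in shPC25 tumors against 6.44, 5.50, 5.25 and 3.94 in scram tumors (-2.20, SE 0.51). The Gpc3 values of all shPC25 tumors and of scram replicate 4 lay under the background level. Fzd1, a Wnt receptor, had 4.53, 5.47 and 5.40 in shPC25 tumors against 7.52, 7.44, 6.70 and 6.44 in scram tumors (-1.89, SE 0.34), while 8 of 10 Frizzled genes were lower with a median of -0.21. The 4 Notch receptors had a median of 0.46 with 3 higher, and the 6 collagen IV chains a median of 0.40 with 5 higher and 4 at background. All 3 measured Slit ligands were lower (median -1.06), with 1 at background. Slit3, a guidance ligand, had 4.08, 3.78 and 3.58 in shPC25 tumors against 6.20, 6.78, 5.92 and 4.54 in scram tumors (-2.05, SE 0.46). Its shPC25 values all lay under the background level. Matrix metalloproteinases had a median of -0.30 over 21 genes, with 3 lower and 0 higher without overlap. Orm1, an acute phase orosomucoid, was lower without overlap (-1.45, SE 0.59), with 3.83 to 4.03 in shPC25 tumors, all under the background level, and 4.14 to 7.12 in scram tumors. The 4.14 of scram replicate 4 also lay under the background level, so the gap from 4.03 to 4.14 lay within background.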
